A study of Bos taurus with 6 samples.

Results

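The transcripts of 10 genes that write, maintain or remove DNA methylation, or are named for binding such a protein (DMAP1), were examined in bovine blastocysts. Members were the genes of the deposited table whose symbol is DNMT1, DNMT3A, DNMT3B, UHRF1, UHRF2, DMAP1, TET1, TET2, TET3 or TDG, and each symbol matched 1 of the 36075 genes listed. The table holds 6 libraries, 3 from control and 3 from MT-treated blastocysts, where MT is melatonin. All oocytes came from slaughterhouse ovaries, matured in vitro for 22 h, and were fertilized and cultured in vitro up to the blastocyst stage. The maturation medium held 1e-07 mol/L MT for the MT-treated group and none for the control group, and values with MT and without MT below refer to these groups. Each library was made from a pool of 3 blastocysts, and the libraries of a group came from separate in vitro production runs. Treatments were run side by side within a run, so control and MT-treated libraries may share runs, but no source used here ties a library to a run. The age and breed of the ovary donors are not given in the sources used here.

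DNA methylation places a methyl group on cytosine, mostly where a guanine follows it. DNMT3A and DNMT3B set new marks, whereas DNMT1 copies existing marks to the daughter strand after replication, guided there by UHRF1, which binds half-methylated DNA. The TET enzymes oxidize methylcytosine, and TDG cuts out the later oxidation products so that base excision repair can restore an unmethylated cytosine. In mammalian embryos methylation is largely lost during cleavage and is later rebuilt, which is why the balance of these genes is followed in early embryos.

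Values are in TPM, a read density corrected for gene length and for the size of the library, so that levels can be compared between genes. The sequencing depth cannot be read from TPM and was not used here, and no error from counting is given. The deposited values summed to 936783 to 937698 TPM in control and 912686 to 913707 TPM in MT-treated libraries. Of the table's genes, 8854 to 8953 were above 0 in the control libraries and 14372 to 14408 in the MT-treated libraries. A gene listed at 0 may have been absent or not counted. OGT and KAT5, which encode enzymes of general use in cells, were also listed at 0 in every control library, so a 0 is reported here only as the listed value. Differences were tested with limma on log2(TPM + 1) for the 11953 genes that reached 1 TPM in 3 or more libraries. Of these, 61.6% were called higher and 34.1% lower with MT (adjusted p-value under 0.05), so that a call alone sets no gene apart. All 3 values with MT lay above all 3 without MT in 61.9% of the tested genes and below them in 34.2%. With 3 libraries against 3, the smallest two-sided p-value of an exact permutation test is 0.1.

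The tissue label was checked with marker lists. Of the trophectoderm markers, 9 of 10 symbols were in the table, and their summed level was 11504 to 11844 TPM in control and 10682 to 11034 TPM in MT-treated libraries, most of it from the keratins KRT8 and KRT18. Of these markers 7 were called higher and 2 lower with MT. POU5F1, a marker of the inner cell mass, had 188 to 191 TPM in control and 191 to 194 TPM in MT-treated libraries. The other 3 inner cell mass markers were at or near 0 in the control libraries. NANOG and LIN28A were listed at 0 and SOX2 at no more than 0.02 TPM, against 5.88 TPM or more for each of them in MT-treated libraries. CDX2, a trophectoderm factor, was listed at 0 in each control library and had 15.03 to 17.23 TPM in MT-treated libraries, whereas TFAP2A, another such factor, had 31.5 to 38.9 TPM in control and 0.46 to 0.55 TPM in MT-treated libraries. The summed level of the 7 hypoblast markers was 223 to 226 TPM in control and 578 to 585 TPM in MT-treated libraries, and 4 of the 7 were listed at 0 in all control libraries. Cumulus and granulosa markers summed to 17.2 to 19.3 TPM and 15.1 to 17.1 TPM, and oocyte markers to 0 and to 1.25 to 1.64 TPM. Nearly all of the cumulus and granulosa sum came from FSHR, at 17.21 to 19.21 TPM in control and 15.03 to 17.08 TPM in MT-treated libraries. Sperm markers summed to 90.6 to 97.5 TPM in control and 8.04 to 9.29 TPM in MT-treated libraries, from TNP1 and TNP2 alone. These marker differences run along the same contrast as the results below, and their part in them was not tested. In pooled embryos, fewer cells of a type and less RNA per cell cannot be told apart.

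Of the methyltransferase genes, DNMT1 was higher and DNMT3B lower with MT, and the direction for DNMT3A depended on the scaling of the libraries. DNMT1, the maintenance enzyme (ENSBTAG00000002736), stood at 116, 113 and 113 TPM without MT and at 223, 214 and 221 TPM with MT. Every MT-treated value lay above every control value, and the mean was 1.93-fold higher (113.9 ± 1.51 against 219 ± 4.83 TPM, SD, n = 3 each). On the log2(TPM + 1) scale DNMT1 rose by 0.94 (standard error 0.02, adjusted p = 5.15e-08 by limma). DNMT3A, a de novo enzyme (ENSBTAG00000021143), stood at 227, 222 and 227 TPM without MT and at 167.7, 167.1 and 168.9 TPM with MT. The groups did not overlap, and the difference was -0.42 on the log2 scale (standard error 0.02, adjusted p = 4.91e-07 by limma), but it became 0.057 (adjusted p = 0.0102 by limma) when libraries were centred on the median gene. DNMT3B, the other de novo enzyme (ENSBTAG00000003901), stood at 30.4, 30.9 and 32.1 TPM without MT and at 17.8, 19.1 and 18.8 TPM with MT. It fell by 0.72 on the log2 scale (standard error 0.04, adjusted p = 2.95e-06 by limma), and every MT-treated value lay below every control value.

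**Figure D1:**
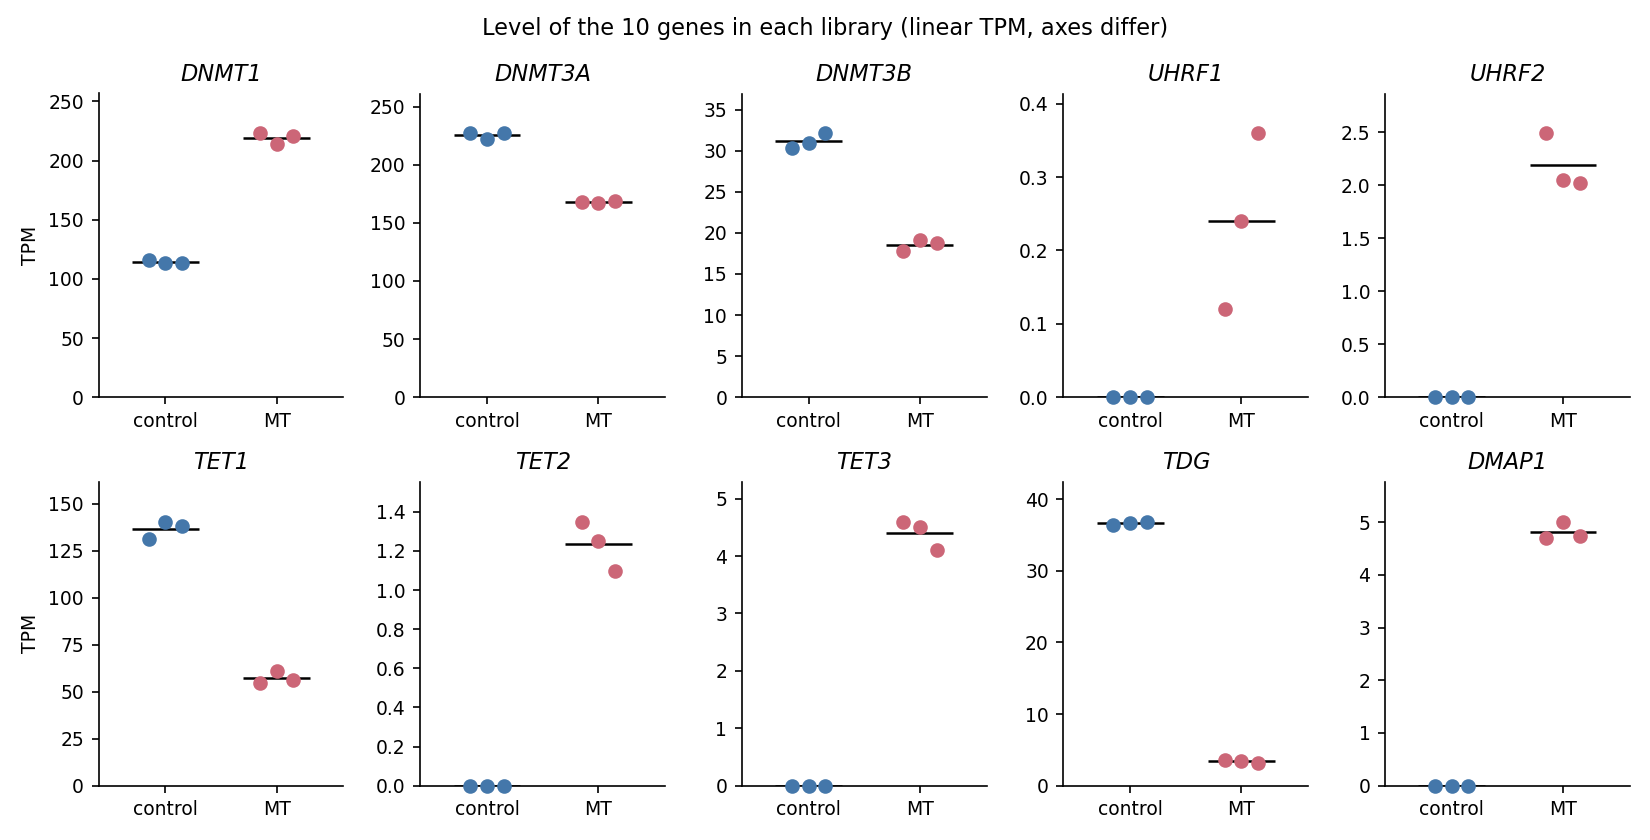
TPM of the 10 genes in the 3 control libraries (blue) and the 3 MT-treated libraries (red, MT), with a line at the group mean and a linear axis from 0 that differs between panels. DNMT1 was higher and DNMT3A, DNMT3B, TET1 and TDG lower in MT-treated libraries, the DNMT3A difference turning to 0.057 on the log2 scale after median centring, and the other 5 genes were listed at 0 in every control library.

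The order of the methyltransferases by level changed, with DNMT3A first without MT and DNMT1 first with MT. The summed level of the 3 genes was 371 ± 3.85 TPM in control and 406 ± 4.95 TPM in MT-treated blastocysts (SD, n = 3 each), a ratio of 1.10. Within that sum, DNMT1 took 31.0%, 30.9% and 30.4% without MT and 54.6%, 53.5% and 54.1% with MT. DNMT3A took 60.8%, 60.7% and 61% without MT and 41.0%, 41.8% and 41.3% with MT. DNMT3B took 8.40% ± 0.245 without MT and 4.58% ± 0.204 with MT (SD, n = 3 each). A factor common to all genes of a library cancels in these shares, so the crossing of DNMT1 and DNMT3A does not depend on such a factor, whereas the sum does. The ratio of DNMT1 to DNMT3A was 0.498 to 0.51 in control libraries and 1.28 to 1.33 in MT-treated libraries. The ratio of the de novo enzymes DNMT3A to DNMT3B moved less, from 7.24 ± 0.206 to 9.05 ± 0.328 (SD, n = 3 each).

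**Figure D2:**
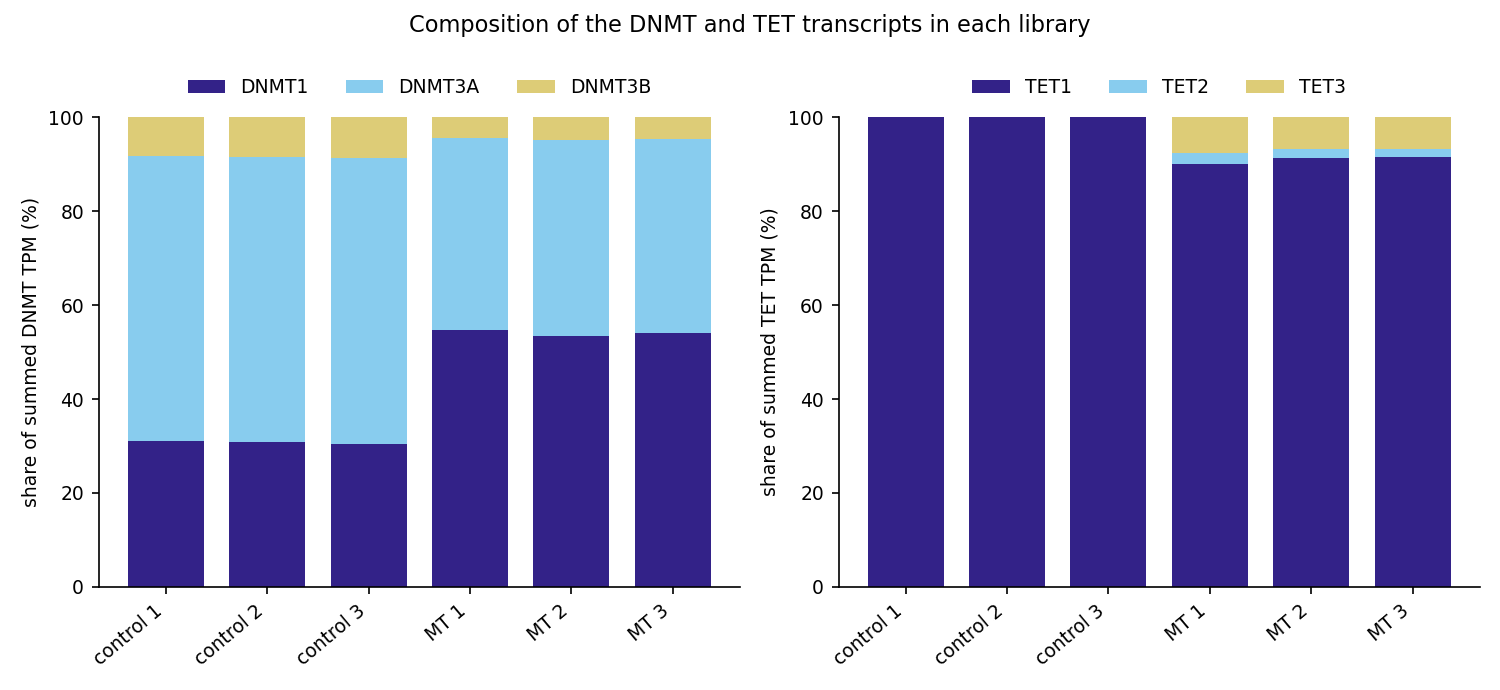
Share of each gene in the summed TPM of the DNMT genes (left) and of the TET genes (right), in percent, as 1 stacked bar per library. DNMT1 rises from 30.4% to 31.0% of the DNMT sum in control libraries to 53.5% to 54.6% in MT-treated libraries. TET1 makes up at least 90.2% of the TET sum in every library, with TET2 and TET3 at a listed 0 in control.

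UHRF1, UHRF2 and DMAP1 were listed at 0 in each control library and stood at or below 5.01 TPM with MT. UHRF1 (ENSBTAG00000002224), which brings DNMT1 to newly replicated DNA, was at 0 in each library without MT and at 0.12, 0.24 and 0.36 TPM in those with MT. It did not reach the level required for testing in any library. UHRF2 (ENSBTAG00000020815), its paralog, was at 0 in each library without MT and at 2.49, 2.05 and 2.02 TPM in those with MT. UHRF2 passed the level for testing through the MT-treated libraries alone, so its call as higher followed from that level. Quantile normalization, which gives all libraries the same distribution, turned the difference from 1.67 to -0.28 on the log2 scale. The summed UHRF level was 2.29 to 2.61 TPM in the MT-treated libraries, in which DNMT1 was at 214 TPM or more. In the RefSeq annotation of build ARS-UCD2.0, UHRF1 overlaps the gene ARRDC5, which was looked up after the values of UHRF1 were seen. ARRDC5 was at 57.0, 60.6 and 60.4 TPM without MT and was listed at 0 in every MT-treated library. Whether reads were counted by strand is not given in the sources used here, so reads of overlapping genes cannot be told apart and the level of UHRF1 is uncertain. The same limit holds for DNMT3A, which overlaps the protein-coding LOC112448893 and MIR1301, for TET1, which overlaps 5 features annotated as pseudogenes or small RNAs, and for DNMT1, which overlaps MIR2454. DMAP1 (ENSBTAG00000005912), named for its binding to DNMT1 and also a subunit of the chromatin complexes NuA4 and SRCAP, was listed at 0 in every control library. It had 4.70, 5.01 and 4.73 TPM with MT. Its call as higher likewise followed from passing the level for testing in those libraries alone. The difference of 2.54 on the log2(TPM + 1) scale shrank to 0.16 after quantile normalization.

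Among the erasers, TET1 had the highest listed level of the TET genes in both groups and was lower with MT. TET1 (ENSBTAG00000037756) stood at 131, 140.4 and 138 TPM without MT and at 54.5, 60.9 and 56.2 TPM with MT. The groups did not overlap, and the control mean was 2.39-fold higher than the MT-treated mean (136.7 ± 4.70 against 57.2 ± 3.35 TPM, SD, n = 3 each). TET1 fell by 1.24 on the log2 scale (standard error 0.05, adjusted p = 6.30e-07 by limma). TET3, best known for oxidizing the paternal genome of the zygote (ENSBTAG00000022381), was at 0 in each library without MT and reached 4.6, 4.5 and 4.11 TPM with MT. TET2 (ENSBTAG00000017682) was at 0 in each library without MT and reached 1.35, 1.25 and 1.10 TPM with MT. TET3 and TET2 passed the level for testing through the MT-treated libraries alone, so their calls as higher followed from that level. After quantile normalization the TET3 difference shrank from 2.43 to 0.11 on the log2 scale, and that of TET2 turned to -0.53. With both included, the summed TET level was lower, at 62.8 ± 3.38 TPM in MT-treated against 136.7 ± 4.70 TPM in control blastocysts (SD, n = 3 each). TET1 made up 90.2%, 91.4% and 91.5% of it in the MT-treated libraries. The ratio of summed DNMT to summed TET level was 2.61 to 2.84 in control libraries and 6 to 6.77 in MT-treated libraries, a 2.39-fold difference between the means. The control sum and ratio take TET2 and TET3 at their listed 0, and these genes may not have been counted.

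TDG had the largest difference of the members above 0 in both groups. TDG (ENSBTAG00000021633), the glycosylase that acts after TET oxidation, stood at 36.4, 36.6 and 36.9 TPM without MT and at 3.64, 3.50 and 3.19 TPM with MT. The control mean was 10.6-fold higher, and TDG fell by 3.08 on the log2 scale (standard error 0.04, adjusted p = 5.57e-09 by limma). Its ratio to TET1 also changed, with 3.73 ± 0.112 TPM of TET1 per TPM of TDG in control libraries and 16.7 ± 1.47 (SD, n = 3 each) in MT-treated libraries. In control blastocysts TDG stood just above DNMT3B, and in MT-treated blastocysts it stood below DMAP1 and TET3.

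The order of levels differed between the groups. In control blastocysts it was DNMT3A, TET1, DNMT1, TDG and DNMT3B, and the ranges of neighbours in this order did not overlap. The other 5 members were listed at 0 and could not be ordered. In MT-treated blastocysts it was DNMT1, DNMT3A, TET1, DNMT3B, DMAP1, TET3, TDG, UHRF2, TET2 and UHRF1. No neighbouring ranges overlapped here either, but DMAP1 and TET3 came close, with a lowest value of 4.70 TPM for DMAP1 and a highest value of 4.6 TPM for TET3. The replicates of a group lay close together, with coefficients of variation from 0.534% for DNMT3A to 6.69% for TDG over the 5 members above 0 in every library. Over all tested genes, libraries correlated at 0.991 to 0.999 within a group and at 0.544 to 0.546 between groups (Pearson, log2(TPM + 1)). How far the spread within a group holds the variation between production runs was not tested.

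The members were then set against all genes. Of the 9 members tested, 5 were called higher and 4 lower, against 61.6% higher and 34.1% lower over all tested genes. Quantile normalization gave a split of 3 higher and 6 lower members, and median centring one of 6 and 3. DMAP1, UHRF2, TET2 and TET3 passed the level for testing through the MT-treated libraries alone, so their calls followed from that level. Of the 2167 genes of the table whose mean with MT was 1 to 5 TPM, the range that holds these 4 genes, 56.4% were at 0 in each control library. Of the 6925 tested genes with no 0 in any library, 40.6% were called higher and 52.3% lower, and the median log2 fold change was -0.19. Of these genes, 23.0% had a log2 fold change as high as that of DNMT1 or higher. A fold change as low as that of TET1 or lower was found in 22.5% of them, and one as low as that of TDG or lower in 4.35%. Shares were also taken among genes of like level. Of the 1156 tested genes with a control mean of 100 to 500 TPM, 2.34% had a log2 fold change of at least that of DNMT1, and 24.0% one as low as that of TET1 or lower. For TDG, 14.5% of the 3022 tested genes with a control mean of 20 to 100 TPM fell as far or further. Median centring, based on the genes that reached 1 TPM in each library, added 0.48 to every log2 fold change. With it, DNMT1 was at 1.42, DNMT3A at 0.057, DNMT3B at -0.24, TET1 at -0.76 and TDG at -2.60.

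**Figure D3:**
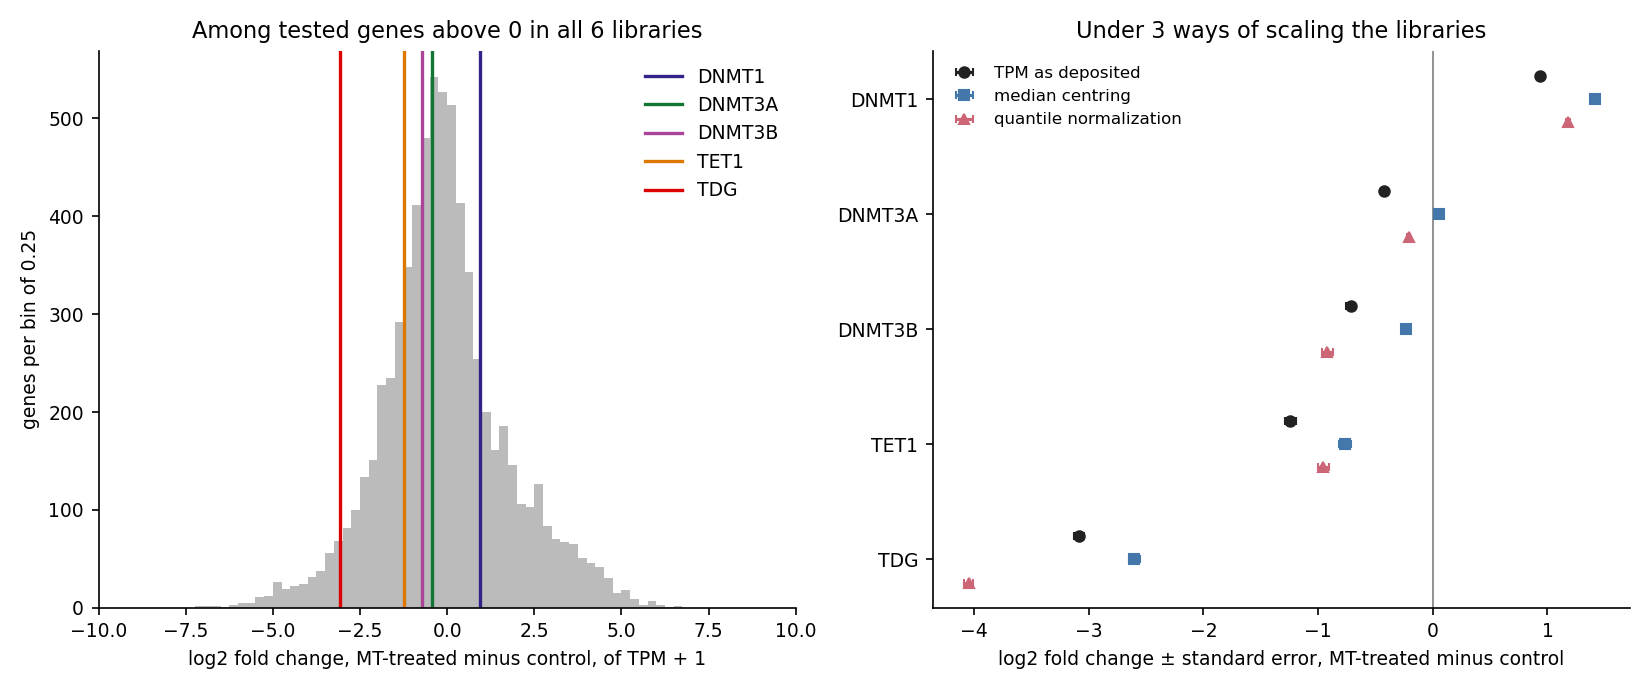
Left, number of genes by log2 fold change of TPM + 1 (MT-treated minus control) for the 6925 tested genes above 0 in all 6 libraries, with vertical lines for 5 members. Right, log2 fold change of the same members with standard errors as deposited, after median centring and after quantile normalization, where DNMT3A alone crosses 0, at -0.42, 0.057 and -0.21.

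Genes that work with the members were grouped in 10 lists of 123 symbols. Of these, 89 genes reached the level for testing, and 49 were called higher and 34 lower. This was 55.1% higher and 38.2% lower, against 61.6% and 34.1% over all tested genes. A listed 0 in each control library was found for 29 of the 49 higher genes. Quantile normalization changed this split to 38 higher and 42 lower, and median centring to 59 and 25. For the 57 of these genes with no 0 in any library the median log2 fold change was -0.28, against -0.19 for all such genes. In the lists below, log2 fold changes come from limma and the genes said to rise or fall had an adjusted p-value under 0.05 with groups that did not overlap. KDM2A, KMT2A, MBD1, SRCAP, CDKN1C and the genes given as rising from 0 passed the level for testing through the MT-treated libraries alone. D2HGDH, CDCA7 and MBD6 passed it through the control libraries alone. The calls of all these genes followed from that level and add nothing to their values.

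Of 14 tested partners that target methyltransferases to DNA, 7 were higher and 5 lower. SETD2, which writes a histone mark read by the de novo enzymes, was at 0 in each library without MT and reached 8.41, 10.4 and 9.99 TPM with MT. The histone methyltransferase genes SUV39H1 and SUV39H2 went opposite ways. SUV39H1 was at 0 in each library without MT and reached 8.46, 7.79 and 7.40 TPM with MT, whereas SUV39H2 fell from 67.9 ± 1.14 to 8.25 ± 0.208 TPM (SD, n = 3 each). CDCA7, which helps the remodeller HELLS open chromatin for DNMT1, fell from 9.98 ± 0.290 to 0.110 ± 0.0346 TPM (SD, n = 3 each). TRIM28, the cofactor through which zinc finger proteins keep imprints methylated, was not called, with a log2 fold change of -0.06 and a 95% interval from -0.12 to 0.000747. DNMT3L, a partner of the de novo enzymes, was listed at 0 in all 6 libraries.

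Of 8 tested genes of proteins that read methylated CpG or share the MBD domain of such readers, 6 were higher and 2 lower, and 4 of the 6 were listed at 0 in all control libraries. ZBTB38 had 43.0, 43.5 and 40.6 TPM and MBD3, a subunit of the NuRD complex that is not known to prefer methylated CpG, 26.0, 23.5 and 22.8 TPM with MT, both from a listed 0. ZBTB33, also called Kaiso, fell from 28.6 ± 1.22 to 12.6 ± 1.19 TPM and MBD6 from 2.18 ± 0.140 to 0.0367 ± 0.0321 TPM (SD, n = 3 each). All 5 tested genes of CXXC proteins, which bind unmethylated CpG islands, were higher, 2 of them from a listed 0, against 61.6% of all tested genes. KDM2A and KMT2A, the latter at 0.81 to 0.89 TPM without MT, also passed the level for testing through the MT-treated libraries alone. Only KDM2B reached that level in the control libraries as well, and the calls of the others followed from the level. KDM2A, a histone demethylase of CpG islands, stood at 0.04, 0.16 and 0.09 TPM without MT and at 66.4, 67.2 and 65.3 TPM with MT. CXXC1, which brings a histone methyltransferase to CpG islands, was listed at 0 in the control libraries and had 9.26, 7.97 and 8.76 TPM with MT.

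The list of base excision repair genes held 9 lower and 6 higher genes among 16 tested. It also includes glycosylases other than TDG, so these counts are not those of the steps after TDG alone. All 6 higher genes were listed at 0 in every control library, and the median log2 fold change was -0.63 over the 10 genes with no 0 in any library. The glycosylase gene NEIL3 had 74.1, 72.4 and 82.3 TPM and NTHL1 20.2, 20.1 and 19.3 TPM with MT, both from a listed 0. OGG1, the glycosylase for oxidized guanine, fell from 49.4 ± 1.95 to 8.44 ± 0.395 TPM and the endonuclease gene APEX2 from 39.4 ± 0.692 to 3.07 ± 0.237 TPM (SD, n = 3 each). For the partners and cofactor supply of TET enzymes, 4 of 6 tested genes were lower. IDH2, which makes the cofactor 2-oxoglutarate in mitochondria, fell from 63.5 ± 2.32 to 1.70 ± 0.303 TPM (SD, n = 3 each). IDH1, of the same list, fell less and stood at 150, 153 and 153 TPM without MT and at 112, 108 and 113 TPM with MT. D2HGDH, which clears the TET inhibitor 2-hydroxyglutarate, was at 29.5, 28.8 and 29.9 TPM without MT and was listed at 0 in every MT-treated library. OGT, a glycosyltransferase that binds TET proteins, had 14.1, 14.0 and 13.9 TPM and the corepressor gene SIN3A 20.1, 27.4 and 24.4 TPM with MT, both from a listed 0.

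Of 5 tested genes of GADD45 proteins and cytosine deaminases, 3 were higher and 2 lower. GADD45A fell from 107.1 ± 1.06 to 15.5 ± 0.918 TPM and GADD45G from 24.5 ± 1.63 to 5.24 ± 0.355 TPM (SD, n = 3 each). GADD45B, the third gene of this stress-induced family, rose from 5.96 ± 0.554 to 10.02 ± 1.197 TPM (SD, n = 3 each). The deaminase gene APOBEC1 had 2.92, 2.35 and 2.43 TPM with MT from a listed 0, and its direction turned to -0.20 after quantile normalization. In the list for the supply of the methyl donor S-adenosylmethionine, 3 of 5 tested genes were higher and 2 lower. AHCYL1 and AHCYL2 were counted in it as relatives of AHCY, and a part of theirs in this supply was not tested. AHCY, which removes the inhibitory product of methylation, rose from 112.7 ± 0.904 to 157.5 ± 1.83 TPM and its relative AHCYL1 from 2.49 ± 0.107 to 24.9 ± 0.409 TPM (SD, n = 3 each). MAT2B, the regulatory subunit of the enzyme that makes the donor, fell from 92.5 ± 1.02 to 41.6 ± 1.93 TPM and AHCYL2 from 39.4 ± 0.632 to 16.4 ± 0.339 TPM (SD, n = 3 each). The remaining higher gene, MAT2A, stood at 60.6, 60.4 and 60.1 TPM without MT and at 70.7, 72.7 and 72.7 TPM with MT.

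The NuA4 and SRCAP complexes, which hold DMAP1, had 8 higher and 8 lower genes among 17 tested, with a listed 0 in each control library for 4 of the 8 that were higher. KAT5, the acetyltransferase of NuA4, had 6.29, 6.75 and 8.16 TPM with MT and its partner EPC2 7.19, 7.17 and 6.72 TPM, both from a listed 0. MEAF6 fell from 95.2 ± 3.10 to 23.7 ± 2.77 TPM and YEATS4, a reader of acetylated histones, from 102.3 ± 4.73 to 25.2 ± 1.203 TPM (SD, n = 3 each).

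Lists of genes that DNA methylation is known to control were described as well, although methylation itself was not measured. Of 10 tested imprinted genes, 7 were higher and 1 lower, against 61.6% higher and 34.1% lower over all tested genes. Of the 7, 4 were listed at 0 in every control library. CDKN1C, at no more than 0.04 TPM there, likewise passed the level for testing through the MT-treated libraries alone. The calls of these genes followed from that level. SNRPN rose from 4.16 ± 0.272 to 128.2 ± 4.68 TPM (SD, n = 3 each). PHLDA2, which restrains placental growth, had 17.16, 20.99 and 16.32 TPM with MT from a listed 0. GRB10 fell from 27.3 ± 0.444 to 16.5 ± 0.906 TPM (SD, n = 3 each). PEG3 was not called, with a log2 fold change of -0.01 and a 95% interval from -0.15 to 0.12. Of 11 germline genes that promoter methylation keeps silent in somatic cells, 4 were tested and 7 stayed below the level for testing, among them DAZL and DDX4 at 0 in all 6 libraries. SYCP3, a part of the meiotic chromosome axis, rose from 8.87 ± 0.765 to 39.6 ± 1.504 TPM and MAEL, which acts in transposon silencing, fell from 38.4 ± 2.45 to 20.5 ± 0.465 TPM (SD, n = 3 each). SOHLH2, a germline transcription factor, had 13.31, 10.57 and 11.01 TPM with MT from a listed 0.

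**Figure D4:**
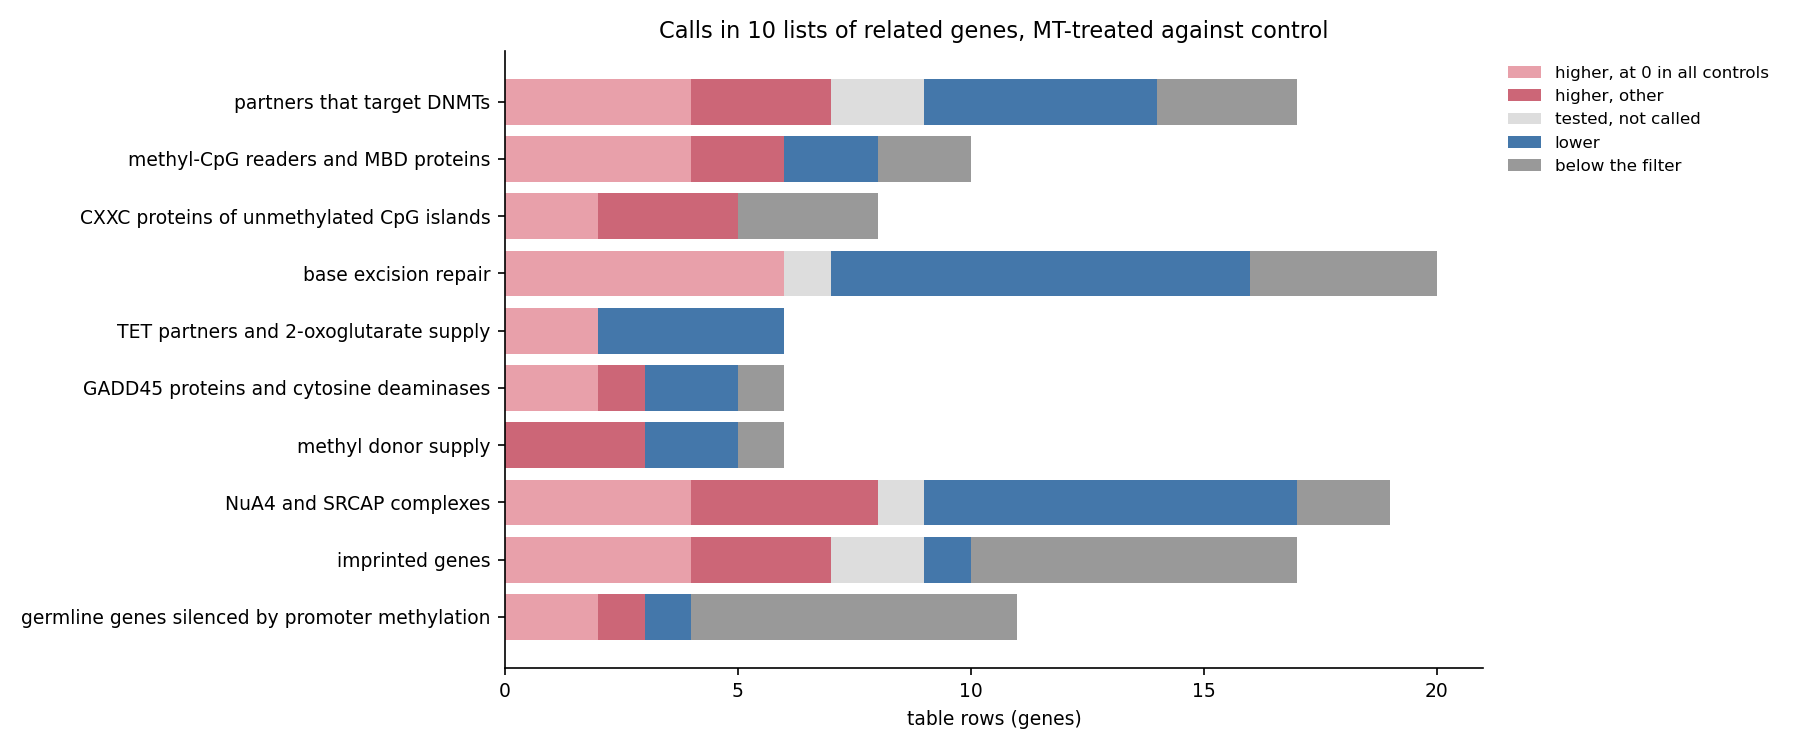
Number of genes in 10 lists of related genes that were called higher in MT-treated blastocysts (split by whether all control libraries were at 0), not called, called lower, or below the level for testing. All 6 higher genes of base excision repair were at 0 in every control library. All 5 tested CXXC genes were higher, but only KDM2B of them reached the level for testing in the control libraries.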

How the data were processed

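RNA was measured in 3 control and 3 MT-treated libraries, each a pool of 3 blastocysts. Per the labels and the paper, the authors aligned reads with STAR 2.7.9a, counted genes with featureCounts (Subread 1.6.3) and tested counts with DESeq2. The build is ARS-UCD1.2 in the labels and ARS-UCD1.3 in the paper. The labels name a TruSeq kit and the paper the Smart-seq2 protocol. The deposited values are TPM of each gene in each library, and how counts became TPM is not given in the sources used here. Columns were matched to samples by the labels. The count test of the study was replaced by limma, because TPM are not counts.

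The genes that reached 1 TPM in 3 or more libraries entered 1 linear model on log2(TPM + 1), with moderated variances that follow the mean level (limma 3.58.1, R 4.3.3). P-values were adjusted over all tested genes with the Benjamini-Hochberg method at 0.05. Shares and ratios were computed per library and not tested. The fit was tested on simulated data. Members and lists were chosen with earlier results of these data known. Named genes were all members, marker genes for the tissue, and per list up to 2 rises and 2 falls of largest log2 fold change whose groups did not overlap. A gene that meets this rule is not reported here. TRIM28, DNMT3L, PEG3, GADD45B, TFAP2A, DAZL, DDX4, KRT18, NANOG, LIN28A, SOX2, TNP1, TNP2 and ARRDC5 were named after their values were seen. This also holds for KMT2A, KDM2B, MAT2A, IDH1, HELLS, MBD1, SRCAP, CDKN1C and FSHR. Overlaps with other genes came from RefSeq names in build ARS-UCD2.0, where all 10 members matched by symbol. Figures were made with Python 3.11.15 and matplotlib 3.10.9.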

Additional observations from a re-analysis of the deposited data

How the results depend on the processing

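Libraries were rescaled by quantile normalization or median centring, a pseudocount of 0.1 was used, the filter was dropped or raised to a TPM of 5, the variance trend was dropped, a replicate block was added and each library was left out. An alternative chosen after seeing the data kept only genes above 0 in all 6 libraries. The number of members called higher, 5 as reported, was 3 with quantile normalization and 1 with a minimum TPM of 5 and with only genes above 0 in all libraries. The last 2 remove the members listed at 0 in control by construction. That restriction also lowered the higher calls over all tested genes from 7367 to 2814 and in the related lists from 49 to 19. With quantile normalization 5550 genes were higher and 5311 lower, against 7367 and 4071 as reported. The direction was reversed for DNMT3A by median centring (0.057), and for TET2 (-0.53), UHRF2 (-0.28) and APOBEC1 (-0.20) by quantile normalization. The other members, and the other genes among the 36 named by rule from the related lists, kept direction and call under each alternative in which they were tested, including each library left out. Tissue markers and genes named after their values were seen were not refitted. Over the fits with a library left out, the log2 fold change was 0.93 to 0.96 for DNMT1 and -0.43 to -0.42 for DNMT3A. It was -1.29 to -1.21 for TET1 and -3.11 to -3.04 for TDG. Rescaling moved the values further, with DNMT1 at 1.18 after quantile normalization and 1.42 after median centring. TET1 was then at -0.95 and -0.76, and TDG at -4.05 and -2.60. Same-numbered libraries had correlations of their deviations of -0.0115, -0.000679 and 0.0588 across 11953 genes, so the numbers were not taken as pairs, although libraries of both groups may share production runs, and not every library correlated best with its own number. The replicate block gave 7379 higher and 4082 lower genes and changed no call of a member. TPM hold no depth, so the precision of low values such as those of UHRF1 and TET2 was not assessed.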
